A study of Mus musculus with 12 samples.

Results

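The subunits described here are 9 genes of the complexes that carry histone deacetylases (HDACs) to chromatin: *Sin3a*, *Sin3b*, *Ncor1*, *Rcor1*, *Rest*, *Mta1*, *Mta2*, *Mta3* and *Chd4*. They were taken by symbol from the deposited mRNA-seq table, and all 9 were found among its 21611 genes and passed the filter on low values. The table held 12 libraries of primary cortical endothelial cells (ECs) of wild-type C57Bl6/J mice, grown in culture. Adult ECs were treated with MS-275 (10 µM, 4 libraries), treated with Wnt3a (2 libraries) or left as controls (3 libraries), and embryonic ECs (E13.5, the embryonic day, 3 libraries) were each from the pooled cells of 1 litter, per the methods. MS-275 inhibits class I HDACs, and the sample titles spell it MS-257. Wnt3a is a Wnt ligand, given at 200, in nM in the labels and in ng/ml in the methods. The adults were males, aged 2 to 3 months in the methods and 3 to 4 months elsewhere in the text, and the sex of the embryos was not determined. All groups shared the genotype, the culture and the library kit.

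The class I deacetylases HDAC1, HDAC2 and HDAC3 have little targeting of their own and act inside large assemblies. SIN3A or SIN3B is the scaffold of the SIN3 complex, and NCOR1 holds HDAC3 for nuclear receptors. In CoREST, RCOR1 joins HDAC1 and HDAC2 to the histone demethylase LSD1 (*Kdm1a*), and the zinc-finger repressor REST brings CoREST and SIN3 to neuronal genes outside neurons. NuRD couples HDAC1 and HDAC2, held by an MTA subunit, to a nucleosome-remodelling ATPase, CHD4 or CHD3.

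The libraries held 20804279 to 33149580 reads on genes. The 9 adult libraries were split into a pair of sets by their sign on the first principal component of deviations from the group means. That component took 52.55% of the variance of the deviations. Deviations balance out within each group, so every group was divided between the sets by construction. Set 1 held control replicates 1 and 2, MS-275 replicates 1 and 3 and Wnt3a replicate 1, and set 2 held control replicate 3, MS-275 replicates 2 and 4 and Wnt3a replicate 2. The labels name no batch, and the sets were found in the values, so an MS-275 value of a named subunit, or a Wnt3a value of a member, whose direction differed between the sets is also given by set or by MS-275 library pair. Control replicates 1 and 2, E13.5 replicates 2 and 3, MS-275 replicates 1 and 3 and MS-275 replicates 2 and 4 were close to each other (chi-square per gene of 10.3, 4.91, 27.5 and 6.65, against 79.7 to 266.3 in other pairs of a group). They still differed by more than sampling noise and were counted separately. The labels list 4 MS-275 libraries as biological replicates, and a figure legend of the study also gives 4. The titles, however, number 3 of them alike, and the methods name 2 replicates. Whether the 4 are separate cultures is therefore in doubt, and their SDs and p-values measure the spread between these libraries. Calls lost with each close pair averaged to 1 sample are given beside the results. In bulk RNA, fewer cells of a type and less RNA per cell cannot be told apart. Against the label, the E13.5 libraries were nearly without endothelial transcripts. The 12 endothelial markers summed to 273470 to 373320 normalized counts in adult control and 923 to 1414 in E13.5 libraries, where *Cldn5* had at most 3.18 and *Pecam1* at most 70.6.

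All 9 subunits were well expressed in every library, and *Mta2*, *Chd4* and *Mta1* led in adult control. Per kb of exon, the mean level in adult control ECs was 1778 ± 284 normalized counts per kb for *Mta2* and 1599 ± 18.7 for *Chd4* (SD, n = 3), whose libraries overlapped. *Mta1* followed at 901 ± 43.4, then *Ncor1* at 586 ± 19.0, *Sin3b* at 481 ± 63.5, *Sin3a* at 412 ± 11.01, *Rcor1* at 398 ± 23.9, *Mta3* at 340.2 ± 28.2 and *Rest* at 287 ± 77.2. *Sin3a* and *Rcor1* did not differ beyond their spread, nor did *Mta3* and *Rest*. With MS-275 the order changed. *Chd4* came first at 1731 ± 345 per kb, ahead of *Mta2* at 900.1 ± 73.2 with no overlap, and *Sin3a* took the third place at 580.2 ± 77.4 (SD, n = 4), where it overlapped with *Rcor1* at 495 ± 141. *Mta3* was last, at 62.7 ± 9.82 per kb, and no library of it reached *Rest*. In the libraries labelled E13.5 *Chd4* led at 1754 ± 68.7, and *Mta1* at 1318 ± 106 stood above *Mta2* at 1058 ± 21.2 in every library (SD, n = 3).

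**Figure D1:**
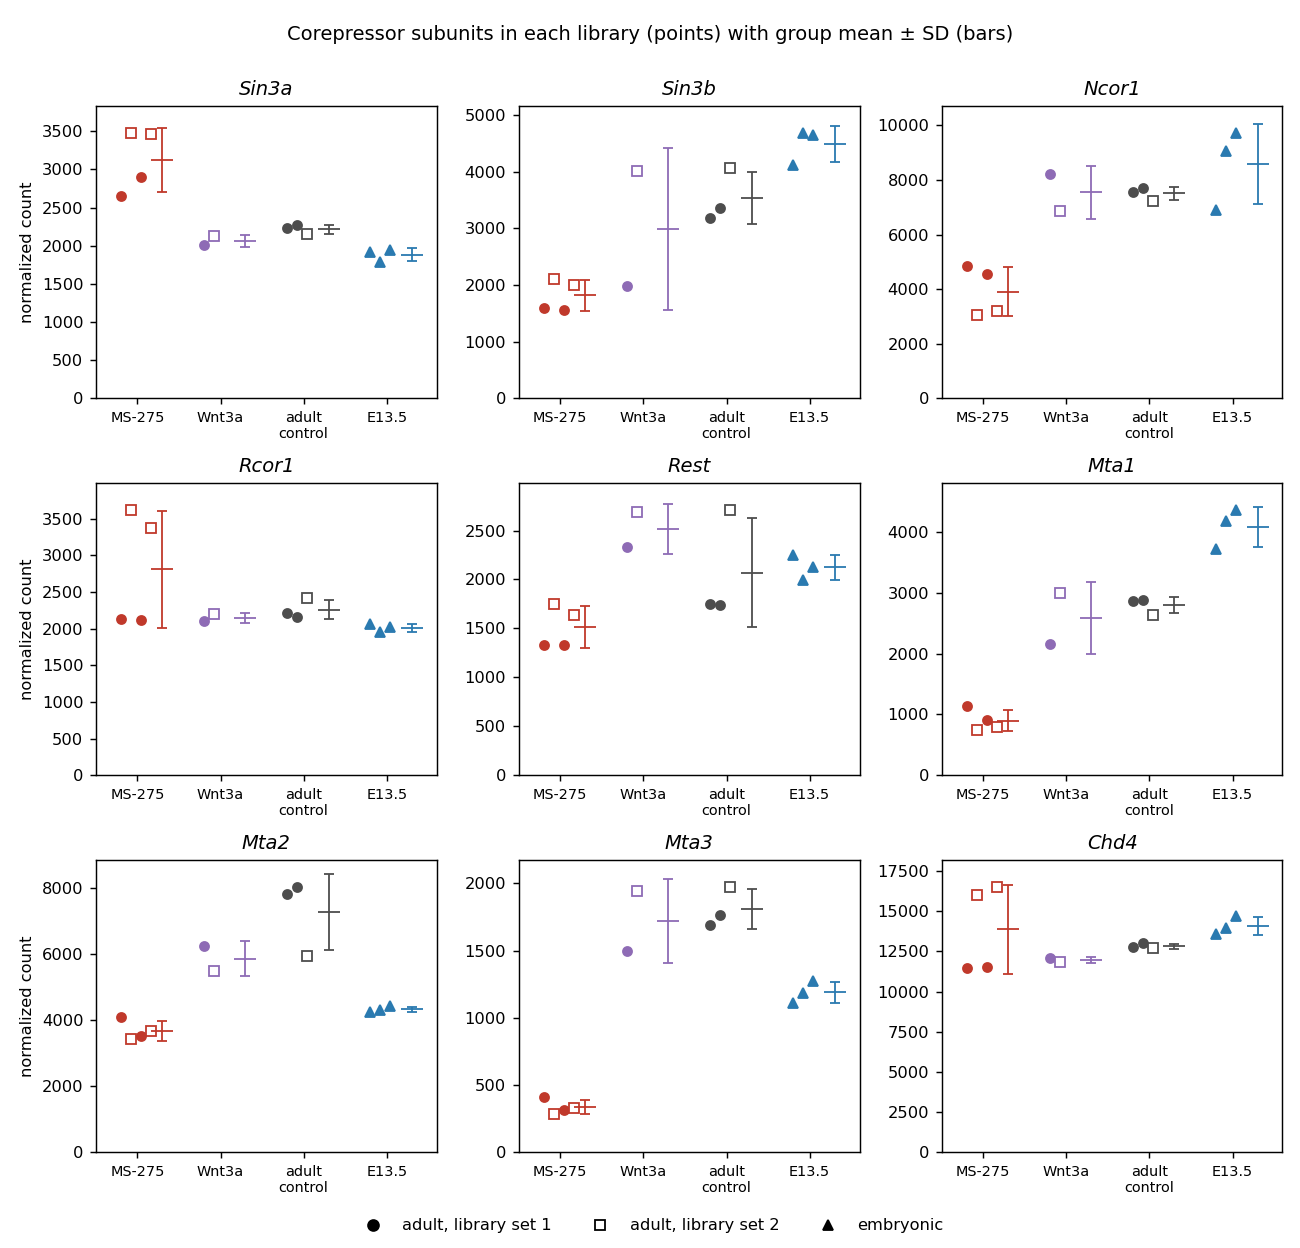
Normalized counts (y axes, linear from 0) of the 9 subunits in MS-275, Wnt3a, adult control and E13.5 libraries, 1 point per library, with the group mean and SD beside the points. Circles and squares are adult library sets 1 and 2 and triangles are embryonic libraries. *Mta3* lay between 286 and 408 in the 4 MS-275 libraries, below every other library.

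MS-275 was compared with the adult control to ask how mRNA levels of the proteins that hold class I HDACs differed under their inhibitor. Of the 9 subunits, 5 fell and 1 rose, where 22.7% of the 15452 genes tested fell and 30.3% rose (limma, Benjamini-Hochberg adjusted p under 0.05). The 5 were *Sin3b*, *Ncor1*, *Mta1*, *Mta2* and *Mta3*, and the 1 that rose was *Sin3a*. The same 6 had no overlap between MS-275 and control libraries, as did 53.2% of all genes. The median log2 fold change of the 9 was −0.96, beside 0.19 for all genes tested.

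The NuRD subunits of the MTA family, which seat the deacetylases in the complex, all fell. *Mta3* had 408, 286, 313 and 327 normalized counts in MS-275 libraries, against 1687, 1765 and 1977 in adult control libraries. The highest treated library was far below the lowest control. The log2 fold change was −2.45 ± 0.16 (SE, adjusted p = 1.35e-06), 5.45-fold lower, and only 5.02% of all genes had a lower value. *Mta1* had 1133, 742, 912 and 802 with MS-275 and 2872, 2879 and 2642 in controls. It fell by 1.66 on the log2 scale (SE 0.17, adjusted p = 1.82e-05), 3.15-fold. *Mta2*, the most abundant of the 3 per kb, had 4107, 3434, 3516 and 3679 with MS-275, against 7836, 8056 and 5945 in controls. It fell by 0.97 (SE 0.13, adjusted p = 1.28e-04), a 1.96-fold difference. Control replicate 3 was the lowest of its group for *Mta1* and *Mta2* and the highest for *Mta3*. The 3 genes kept their direction within both library sets, with log2 differences of −2.27 and −2.69 for *Mta3*, −1.499 and −1.78 for *Mta1* and −1.06 and −0.74 for *Mta2* in sets 1 and 2.

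*Chd4*, the ATPase of NuRD, had 11470, 16013, 11523 and 16528 with MS-275 and 12767, 12994 and 12710 in controls. The treated libraries lay on both sides of the controls, and the fitted log2 difference, 0.09, was not called (95% interval −0.23 to 0.42, adjusted p = 0.622). The high libraries were those of set 2. With MS-275 replicates 2 and 4 alone *Chd4* rose by 0.34 (adjusted p = 0.0223), and with replicates 1 and 3 alone the value was −0.16 (adjusted p = 0.269).

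The scaffolds of SIN3 moved in opposite directions. *Sin3a* had 2648, 3484, 2902 and 3463 with MS-275 and 2234, 2269 and 2153 in controls, a rise of 0.48 ± 0.13 (log2 fold change ± SE, adjusted p = 0.00723). *Sin3b* had 1600, 2113, 1561 and 1992 with MS-275, against 3178, 3364 and 4064 in controls, and fell by 0.96 (SE 0.22, adjusted p = 0.00357). Neither gene's groups overlapped. Within sets 1 and 2 the log2 differences were 0.30 and 0.69 for *Sin3a* and −1.05 and −0.99 for *Sin3b*. The *Sin3a* call was lost with MS-275 replicates 1 and 3 alone (log2 fold change 0.32, adjusted p = 0.0525). Both calls were lost with each close pair averaged to 1 sample (adjusted p = 0.128 for *Sin3a* and 0.0778 for *Sin3b*).

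*Ncor1*, the HDAC3 corepressor of nuclear receptors, had 4835, 3061, 4550 and 3208 with MS-275 and 7572, 7718 and 7243 in controls. It fell by 0.97 (SE 0.19, adjusted p = 0.00138), and the larger decrease was in set 2, with log2 differences of −0.70 and −1.21 in sets 1 and 2. Its locus, chr11:62316426-62458541 (mm10, − strand), overlaps 2 coding genes on the other strand, *Ttc19* and *Pigl*. The sources used here do not say whether reads were counted by strand, so reads of overlapping exons could not be told apart.

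Neither *Rcor1*, the CoREST scaffold, nor *Rest*, its DNA-binding recruiter, was called. *Rcor1* had 2138, 3624, 2112 and 3372 with MS-275 and 2209, 2158 and 2415 in controls. As for *Chd4*, only the set 2 libraries were above the controls, and the log2 fold change of 0.27 was not called (95% interval −0.15 to 0.70, adjusted p = 0.261). It was 0.63 (adjusted p = 0.00190) with MS-275 replicates 2 and 4 alone and −0.088 (adjusted p = 0.568) with replicates 1 and 3 alone. *Rest* had 1331, 1754, 1332 and 1638 with MS-275 and 1753, 1744 and 2714 in controls, and the groups overlapped through MS-275 replicate 2. Its log2 fold change of −0.43 ± 0.18 had an adjusted p of 0.0621. With library set as a block it fell by 0.50 (adjusted p = 0.00400), and edgeR (adjusted p = 0.0320) and DESeq2 (adjusted p = 0.0412) also called it lower. The sets were cut from the spread within groups of these same libraries, so blocking on them lowers p-values on its own. Over all genes that block, fitted to the 9 adult libraries alone, gave 5303 higher and 4070 lower. Without it, in all 12 libraries, the counts were 4677 and 3515, so the fits differ in their libraries as well. These limits hold for every p-value given with that block. *Rest* passed in 5 of 23 alternatives, over which its adjusted p ranged from 0.00400 to 0.319.

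**Figure D2:**
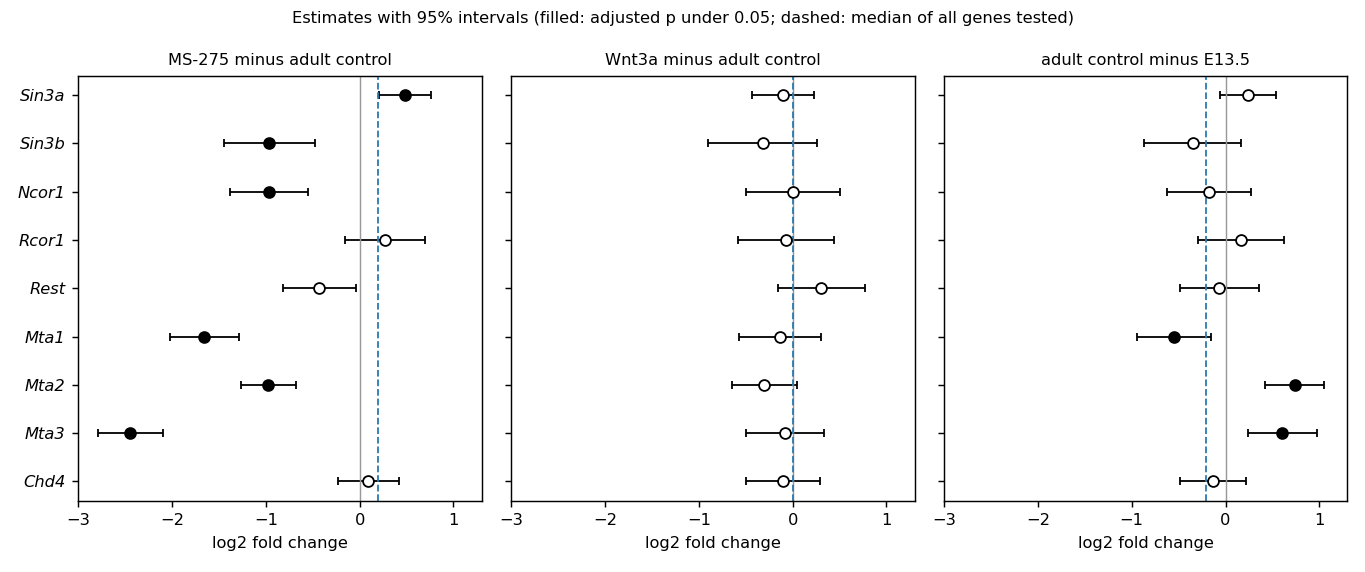
Log2 fold changes (x axes, limma on log2 of normalized count plus 1) of the 9 subunits with 95% intervals in 3 comparisons, filled where the adjusted p was under 0.05. With MS-275, 5 of 9 lay below and 1 above 0 past the threshold, against none with Wnt3a and 1 below and 2 above in adult control relative to E13.5 libraries.

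The start regions of *Mta1* and *Mta2*, which fell, *Sin3a*, which rose, and *Rcor1*, which was not called, are shown so that members of unlike response can be read side by side. RefSeq promoter windows (GRCm38.p6, 250 bases before to 50 after the start) were at hand for 7 members, 10 windows in all, and none for *Rest* and *Mta3*. Capitals mark the GC box GGGCGG, the binding motif of SP1-type factors, and the CCAAT box CCAAT, that of NF-Y, each on either strand and with no overlap between them.
Sin3a, chr9:57071790-57072089 (+ strand): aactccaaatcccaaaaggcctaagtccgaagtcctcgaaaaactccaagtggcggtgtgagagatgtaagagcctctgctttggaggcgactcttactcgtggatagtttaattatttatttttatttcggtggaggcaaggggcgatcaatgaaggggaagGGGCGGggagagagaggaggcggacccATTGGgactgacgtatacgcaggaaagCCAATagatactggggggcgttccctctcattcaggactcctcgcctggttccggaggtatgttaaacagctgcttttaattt
Rcor1, chr12:111039117-111039416 (+ strand): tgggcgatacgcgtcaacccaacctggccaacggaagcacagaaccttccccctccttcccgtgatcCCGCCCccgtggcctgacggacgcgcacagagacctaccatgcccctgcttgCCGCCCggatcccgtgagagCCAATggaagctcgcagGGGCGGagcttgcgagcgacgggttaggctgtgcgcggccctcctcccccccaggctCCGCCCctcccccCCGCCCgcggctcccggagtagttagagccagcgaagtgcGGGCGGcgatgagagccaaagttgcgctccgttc
Mta1, chr12:113098028-113098327 (+ strand): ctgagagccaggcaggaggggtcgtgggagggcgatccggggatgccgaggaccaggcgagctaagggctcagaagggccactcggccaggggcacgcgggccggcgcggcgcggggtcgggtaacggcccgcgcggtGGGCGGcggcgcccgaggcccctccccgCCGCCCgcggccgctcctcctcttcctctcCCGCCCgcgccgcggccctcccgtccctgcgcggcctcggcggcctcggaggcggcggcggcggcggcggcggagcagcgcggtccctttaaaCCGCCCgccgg
Mta2, chr19:8941670-8941969 (+ strand): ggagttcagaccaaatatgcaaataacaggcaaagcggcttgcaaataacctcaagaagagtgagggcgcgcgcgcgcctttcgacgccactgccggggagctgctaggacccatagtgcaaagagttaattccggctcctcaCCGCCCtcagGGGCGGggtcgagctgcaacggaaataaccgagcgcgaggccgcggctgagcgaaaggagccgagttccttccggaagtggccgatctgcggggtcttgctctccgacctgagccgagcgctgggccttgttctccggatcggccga
A GC box was in 9 of the 10 windows, at least 1 for each of the 7 genes, and in 35.7% of all 32851 windows. The windows shown held 4 in *Mta1*, 2 in *Mta2*, 1 in *Sin3a* and 6 in *Rcor1*. CCAAT was found in *Sin3a* (2 matches in the window shown), *Rcor1* (1) and *Chd4* (1 in each window) and in none of the windows of *Mta1*, *Mta2*, *Ncor1* and *Sin3b*, so in 5 of the 10 windows, and 37.4% of all windows held it. The 4 genes without it are 4 of the 5 that fell with MS-275, and *Mta3*, which also fell, had no window. Of the partner genes named below that fell and had a window, *Kdm1a*, *Cdk2ap1*, *Rbbp4*, *Hdac8* and *Gatad2a* (not in each window) held CCAAT. *Ctbp1*, *Rcor3*, *Tbl1x* and *Elmsan1* did not. The split among the members was read after the values were seen and was not tested, and a match is not a binding site. Among the members *Mta1* had the most GC-rich window (81% G and C).

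The make-up of the SIN3, MTA, CHD and RCOR families differed between MS-275 and control libraries. It is described here as each paralog's share of its family per kb of exon. That ratio is unchanged when a whole library is scaled by a common factor, but quantile normalization can change it. *Sin3a* made up 70.2% ± 1.17 of the SIN3 pair with MS-275 and 46.3% ± 3.78 in adult control. Among the MTA genes, *Mta2* took 72.1% ± 2.26 with MS-275 and 58.6% ± 3.77 in control, *Mta1* 22.96% ± 2.12 and 29.95% ± 1.64, and *Mta3* 4.99% ± 0.24 and 11.4% ± 2.16 (SD, n = 4 MS-275 and 3 control). *Chd4* made up 95.4% ± 1.73 of the *Chd3*, *Chd4* and *Chd5* genes with MS-275, against 67.4% ± 5.12 in control, and *Chd3*, the other main NuRD ATPase, 4.28% ± 1.70, against 32.6% ± 5.06. *Rcor1* had 88.7% ± 1.62 of the RCOR genes with MS-275 and 83.7% ± 0.93 in control. None of these shares overlapped between the 2 groups. In an exact permutation test (two-sided) 4 against 3 libraries cannot give a p below 0.0571, and the 6 member shares above each had that p (adjusted 0.114 over 16 tests). The *Chd3* share was not tested.

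**Figure D3:**
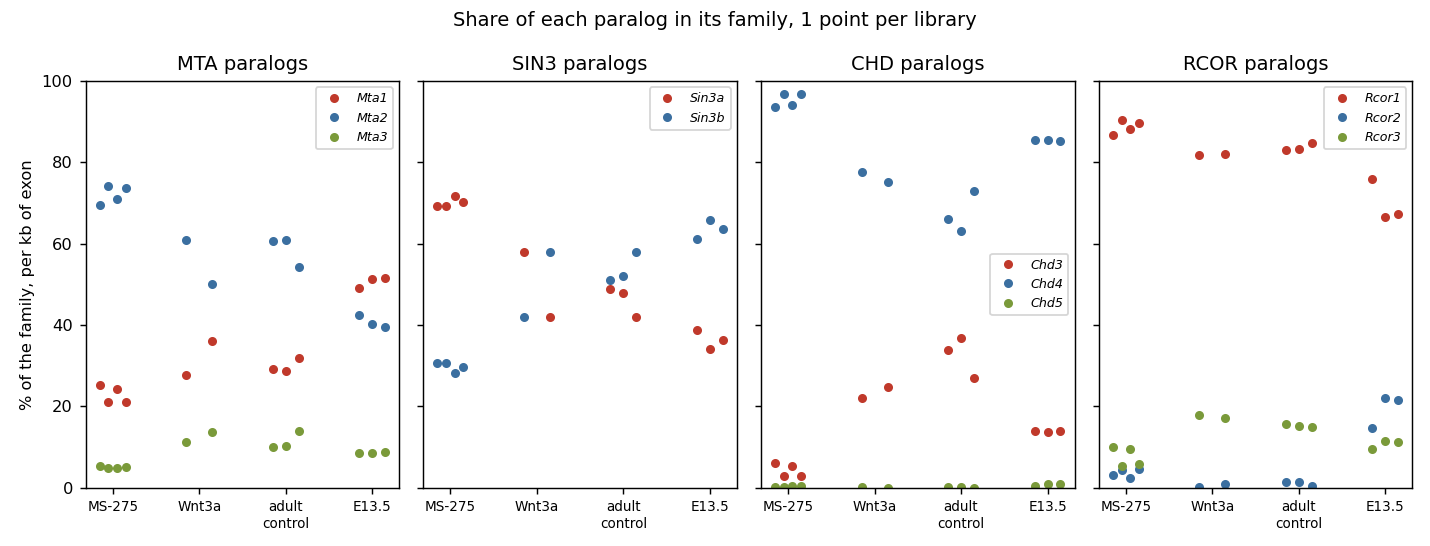
Share of each paralog in the summed normalized counts per kb of exon of its family (y axis, %), 1 point per library, in MS-275, Wnt3a, adult control and E13.5 libraries. *Sin3a* lay between 69.3% and 71.7% of its pair in MS-275 libraries and between 42.0% and 49.0% in controls.

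Adult control was compared with E13.5 to ask how the subunits differed between the stages. Of the 9, 2 were higher and 1 lower in adult control, where 19.5% of all genes were higher and 32.8% lower. Quantile normalization gave 4800 higher and 3810 lower genes in place of 3008 and 5066, moved the median of all genes to 0.13, against −0.20 in the deposited scaling, and called the same number of subunits in each direction. The 3 called subunits were the MTA genes, and they did not move together. *Mta2* had 7836, 8056 and 5945 normalized counts in adult control libraries and 4257, 4308 and 4426 in E13.5 libraries, 0.74 ± 0.14 higher on the log2 scale (adjusted p = 0.00114). *Mta3* had 1687, 1765 and 1977 in adult control and 1108, 1188 and 1271 in E13.5 libraries, 0.60 ± 0.17 higher (adjusted p = 0.0102). *Mta1* had 2872, 2879 and 2642 in adult control and 3729, 4175 and 4370 in E13.5 libraries, and was lower by 0.55 ± 0.18 (log2 fold change −0.55, adjusted p = 0.0242). None of these groups overlapped, nor did 61.9% of all genes. *Mta1* was 29.95% ± 1.64 of the MTA genes in adult control and 50.7% ± 1.41 in E13.5 libraries (SD, n = 3 each), and *Mta2* 58.6% ± 3.77 and 40.7% ± 1.5. The exact permutation p was 0.1 for both, the smallest that 3 against 3 can give. *Mta1* lost its call in edgeR (adjusted p = 0.0891), in the fit with replicate number as a block (0.0563) and when control replicate 1, control replicate 3, E13.5 replicate 2 or E13.5 replicate 3 was left out (0.0510 to 0.0816). With each close pair averaged the adjusted p was 0.0597 for *Mta2*, 0.0810 for *Mta3* and 0.167 for *Mta1*.

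The other 6 subunits were not called between the stages. Their log2 fold changes were 0.24 for *Sin3a*, −0.35 for *Sin3b*, −0.18 for *Ncor1*, 0.17 for *Rcor1*, −0.07 for *Rest* and −0.13 for *Chd4*. The 95% interval of *Rest* ran from −0.49 to 0.35. In edgeR *Sin3a* was called higher (0.38, adjusted p = 0.0328). For *Sin3a* (1914, 1784 and 1946 in E13.5 libraries), *Rcor1*, *Sin3b* and *Chd4* the groups did not overlap although the test did not pass. *Sin3a* made 46.3% ± 3.78 of its pair in adult control and 36.5% ± 2.31 in E13.5 libraries. Markers of other cells differed with stage. The 10 neuronal markers summed to 18.3 to 29.6 in adult control and 6381 to 11829 in E13.5 libraries, with *Dcx*, *Neurod1*, *Neurod6* and *Stmn4* without a read in controls. Of 10 neural progenitor markers, 3 in adult control and all 10 in E13.5 libraries averaged at least 10. *Sox2*, *Hes5*, *Fabp7*, *Sox1* and *Emx2* were among those without a read in controls. The sums overlapped (117092 to 158612 in adult control and 121454 to 136415 in E13.5 libraries). Both were mostly *Vim*, which was higher in adult control (106110 to 151060, against 79207 to 104646). *Nes* was lower in adult control, and *Notch1* overlapped. Smooth muscle markers summed to 83.3 to 87.8 in adult control and 29793 to 48293 in E13.5 libraries. The part of these cells in the stage differences was not tested.

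With Wnt3a, whose pathway the study examined as a regulator of barrier genes, none of the 9 subunits was called, nor was any of the 15452 genes in limma or edgeR (0%). DESeq2 called 29 genes higher and 12 lower, and 1311 genes (8.48%) had an unadjusted p under 0.05 in limma, none of them a member. With 2 treated libraries the intervals were wide. The deviations of 2 libraries from their mean are always opposite, so the Wnt3a libraries fell in different sets by construction. Each Wnt3a value within a set rests on 1 treated library. *Sin3b* had 1982 and 4005 with Wnt3a and 3178, 3364 and 4064 in controls, so that replicate 1 alone was below them. Its log2 fold change was −0.32 (95% interval −0.90 to 0.26) and turned to 0.19 without Wnt3a replicate 1. *Rest* had 2334 and 2693 with Wnt3a, against 1753, 1744 and 2714 in controls (log2 fold change 0.31, interval −0.16 to 0.78), and within sets the difference was 0.42 in set 1 and −0.011 in set 2. *Mta2* had 6243 and 5491, against 7836, 8056 and 5945 (log2 fold change −0.30, interval −0.65 to 0.05). *Chd4* (12078 and 11844 with Wnt3a) and *Sin3a* (2006 and 2123) lay below all controls by 0.10 on the log2 scale, without passing the test, and 8.21% of all genes were without overlap in that direction. *Ncor1*, *Rcor1*, *Mta1* and *Mta3* overlapped, with log2 fold changes between −0.14 and 0.0026. Within sets 1 and 2 the Wnt3a differences were −0.41 and 0.18 for *Mta1*, 0.11 and −0.077 for *Ncor1* and −0.72 and −0.021 for *Sin3b*.

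Set directly against Wnt3a, MS-275 gave 5 lower and 1 higher member, where 18.7% of all genes were lower and 23.6% higher. *Mta3* (log2 fold change −2.36, adjusted p = 6.98e-06), *Mta1* (−1.52), *Ncor1* (−0.97), *Rest* (−0.74, adjusted p = 0.0129) and *Mta2* (−0.67) were lower and *Sin3a* was higher (0.59, adjusted p = 0.00660). *Rest* ran from 1331 to 1754 with MS-275 and from 2334 to 2693 with Wnt3a, without overlap, and its call was lost without Wnt3a replicate 2 (adjusted p = 0.0964), with MS-275 replicates 2 and 4 alone (0.0708) and with close pairs averaged (0.103). With close pairs averaged *Sin3a* (0.0900) and *Mta2* (0.0745) also lost their calls against Wnt3a. *Sin3b* at −0.65 was not called (adjusted p = 0.0578), and its value was −1.15 without Wnt3a replicate 1 (adjusted p = 0.00307) and −0.14 without Wnt3a replicate 2 (0.672). The comparisons with control and with Wnt3a share the MS-275 libraries, and the stage, MS-275 and Wnt3a comparisons share the controls, so they are not independent of each other.

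The partners of the 9 subunits were followed in lists of 46 further genes, all of which passed the filter. The lists held other subunits of these complexes, shared histone chaperones, the class I HDACs and genes of MiDAC, another deacetylase complex. *Hdac8* and the MiDAC genes, which are not subunits of the complexes above, are thus within the counts of partners. With MS-275 11 rose (23.9%, beside 30.3% of all genes) and 18 fell (39.1%, beside 22.7%), with a median log2 fold change of −0.20. With close pairs averaged 3 rose and 8 fell. Of 7 other NuRD subunits 6 fell and none rose (median −0.81), and the seventh, *Chd5*, had 1.48 (adjusted p = 0.0996) and was called higher with library set as a block (1.68, adjusted p = 0.0391). *Chd3*, the ATPase paralog of *Chd4*, had 783, 504, 694 and 499 normalized counts with MS-275 and 6908, 7983 and 4940 in controls, the largest decrease of any subunit at −3.41 ± 0.20 (adjusted p = 8.52e-07). *Cdk2ap1*, a small NuRD subunit, averaged 518 ± 224 with MS-275 and 3840.2 ± 707 in controls (log2 fold change −2.98, adjusted p = 1.90e-05). The linker *Gatad2a* averaged 3126 ± 242 and 5461 ± 192 (−0.81, adjusted p = 1.73e-04). With MS-275 replicates 2 and 4 alone 4 of the 7 fell, and with close pairs averaged 3.

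Of 11 other CoREST subunits 7 fell and 2 rose with MS-275 (median −0.67), where 22.7% of all genes fell and 30.3% rose. With close pairs averaged 4 fell and with MS-275 replicates 1 and 3 alone 5, and none rose in either. *Ctbp1*, a corepressor found with CoREST, averaged 1491 ± 353 with MS-275 and 5898 ± 648 in controls (−2.01, adjusted p = 7.65e-06). *Kdm1a*, the demethylase, had 796, 843, 766 and 764 with MS-275, against 1496, 1495 and 1524 (−0.93, adjusted p = 5.87e-05). The *Rcor1* paralog *Rcor3* fell by 0.88 (adjusted p = 3.50e-04), whereas *Rcor2*, at 67.4 ± 34.9 with MS-275 and 15.1 ± 7.99 in controls, rose by 2.09 (adjusted p = 0.0144). The log2 difference of *Rcor2* was 0.88 in set 1 and 3.83 in set 2, and its call was lost with MS-275 replicates 1 and 3 alone (adjusted p = 0.137), quantile normalization (0.158) and close pairs averaged (0.105).

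In the SIN3 complex 7 of 15 other subunits rose and 1 fell (median 0.49), where 30.3% of all genes rose and 22.7% fell. With close pairs averaged 2 rose and none fell. *Brms1* averaged 1897 ± 273 with MS-275 and 829.1 ± 12.97 in controls (1.18, adjusted p = 3.79e-05), *Sap130* 1829 ± 384 and 835 ± 124 (1.12, adjusted p = 9.90e-04), and *Ing1*, a reader of methylated histone H3, 1476 ± 236 and 859 ± 44.5 (0.77, adjusted p = 0.00108). Among other NCoR subunits *Tbl1x* fell by 0.58 (adjusted p = 8.65e-04), and *Gps2* (0.47) and *Tbl1xr1* (0.34) were not called. Within sets 1 and 2 the differences were −0.025 and 1.18 for *Gps2* and 0.74 and −0.44 for *Tbl1xr1*. Among the class I HDACs themselves *Hdac1* had 2424, 2771, 2491 and 2875 with MS-275, against 1460, 1603 and 1629 in controls, and rose by 0.75 (adjusted p = 0.00384). *Hdac8*, which works outside these complexes, fell by 1.13 (adjusted p = 0.00252), and *Hdac2* (0.61, adjusted p = 0.0862) and *Hdac3* (0.30, adjusted p = 0.0901) did not pass. With library set as a block, which lowers p-values on its own, both were called higher (*Hdac2* 0.48, adjusted p = 0.00369, and *Hdac3* 0.33, adjusted p = 0.0190). The histone chaperone *Rbbp4* fell by 0.52 (adjusted p = 0.0106) and *Rbbp7* (−0.18) was not called, but was lower with library set as a block (−0.33, adjusted p = 0.0379). Of the MiDAC genes, a mitotic deacetylase complex, *Elmsan1* fell by 0.58 (adjusted p = 0.0354), *Dnttip1* was at −0.021 (−0.19 in set 1 and 0.20 in set 2), and the testis gene *Zfp541* had 52 reads over the MS-275 libraries and 1 over the controls, a ratio of 39.8 (95% interval from counting 6.84 to 1603). The *Elmsan1* groups overlapped, its log2 difference was −1.05 in set 1 and 0.11 in set 2, and its call was lost with quantile normalization (adjusted p = 0.0613), MS-275 replicates 2 and 4 alone (0.235) and close pairs averaged (0.308). With close pairs averaged *Ing1* (adjusted p = 0.0571), *Tbl1x* (0.0604), *Hdac1* (0.0951) and *Rbbp4* (0.205) also lost their calls, *Rbbp4* with MS-275 replicates 1 and 3 alone too (0.0734).

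Between the stages 9 of the 46 partners were higher (19.6%, beside 19.5% of all genes) and 10 lower (21.7%, beside 32.8%) in adult control (median −0.21, that of all genes −0.20). *Chd3* averaged 6610 ± 1543 in adult control and 2404 ± 100.4 in E13.5 libraries (1.43, adjusted p = 1.93e-04), and the methyl-DNA reader *Mbd2* 2931 ± 103 and 1525 ± 234 (0.95, adjusted p = 0.00172). *Chd5* was lower by 2.90 (log2 fold change −2.90, adjusted p = 0.00731). In CoREST *Kdm1a* averaged 1505 ± 16.4 in adult control and 3251 ± 161 in E13.5 libraries (−1.11, adjusted p = 1.50e-05), *Rcor2* 15.1 ± 7.99 and 313 ± 77.8 (−4.42, adjusted p = 1.72e-04) and *Gse1* 741 ± 179 and 3191 ± 916 (−2.09, adjusted p = 5.83e-04). In SIN3 *Sap130* was lower in adult control (−1.56, adjusted p = 1.21e-04), and *Brms1* (0.67, adjusted p = 0.00220) and *Suds3* (0.64, adjusted p = 0.00890) were higher. *Hdac3* averaged 872 ± 80.9 in adult control and 1528 ± 245 in E13.5 libraries (−0.80, adjusted p = 9.10e-04), *Hdac8* 449 ± 23.3 and 191 ± 11.9 (1.23, adjusted p = 0.00212), *Tbl1x* was higher by 0.31 (adjusted p = 0.0377, a call lost with equal totals, quantile normalization, the replicate block and close pairs averaged) and *Rbbp4* lower (−0.70, adjusted p = 0.00255). *Hdac1* (−0.22) and *Hdac2* (−0.33) were not called. With equal library totals 6 partners were higher and 13 lower, in edgeR 12 and 9, and with close pairs averaged 3 and 6. The calls of *Chd5* (adjusted p = 0.0707), *Brms1* (0.0579) and *Suds3* (0.0919) were lost with close pairs averaged, and that of *Chd5* also with quantile normalization (0.347).

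REST has no enzyme of its own, so its known targets were listed as a further readout, 35 neuronal genes of which 34 could be tested. With MS-275 16 rose (47.1%, beside 30.3% of all genes) and 4 fell (11.8%, beside 22.7%), with a median log2 fold change of 1.39, or 1.14 with 5 genes unread in controls at their bounds. With close pairs averaged 12 rose and 1 fell, and with MS-275 replicates 1 and 3 alone 16 and 1. Quantile normalization gave 11 higher and 5 lower (median 0.30), edgeR 17 and 5 (2.13) and DESeq2 18 and 5 (2.20). *Vgf*, a secreted neuropeptide precursor, had 1826, 5635, 3777 and 4593 normalized counts with MS-275 and 8.67, 4.07 and 19.7 in controls (8.51 ± 0.50, adjusted p = 8.52e-07). *Unc13a*, a synaptic vesicle priming factor, had 2215, 2576, 2165 and 2670, against 471, 497 and 412 (2.38 ± 0.16, adjusted p = 1.99e-06). *Gdap1* had 101 to 234 with MS-275 and no read in the 3 controls, at least 59.3-fold higher than a floor of 3 reads in each control library. *Snap25*, a vesicle fusion protein, had 616 reads over the MS-275 libraries and 2 over the controls, a ratio of 236 (95% interval from counting 65.0 to 1953). Neuronal markers, none of which is in the REST list, also differed. Their sum was 1363 to 1658 with MS-275 and 18.3 to 29.6 in controls, 5 and 1 of the 10 averaged at least 10, and *Dcx*, *Neurod1* and *Neurod6* had no read in either group. Most of the MS-275 sum was *Mapt* (1126 to 1338, against 12.2 to 18.7 in controls), followed by *Stmn4* (106 to 279). No other neuronal marker passed 56.8 in an MS-275 library (*Elavl3*). The 12 endothelial markers summed to 20848 to 38139 with MS-275 and 273470 to 373320 in controls. The part of these differences in the results was not tested.

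Between the stages 24 REST targets were lower (70.6%, beside 32.8% of all genes) and 4 higher (11.8%, beside 19.5%) in adult control (median −5.65, or −4.73 with 7 unread genes at their bounds, and −3.23 with quantile normalization). *Vgf* averaged 10.8 ± 8.04 in adult control and 4084 ± 1324 in E13.5 libraries. *Trim9* had no read in adult control, at least 953-fold lower than the E13.5 mean of 2735 by the same floor of 3 reads per library, and *Gria2* had 2 reads in adult control and 16518 in E13.5 libraries. The neuronal markers given above for the stages differed in the same direction, and their part was not tested.

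**Figure D4:**
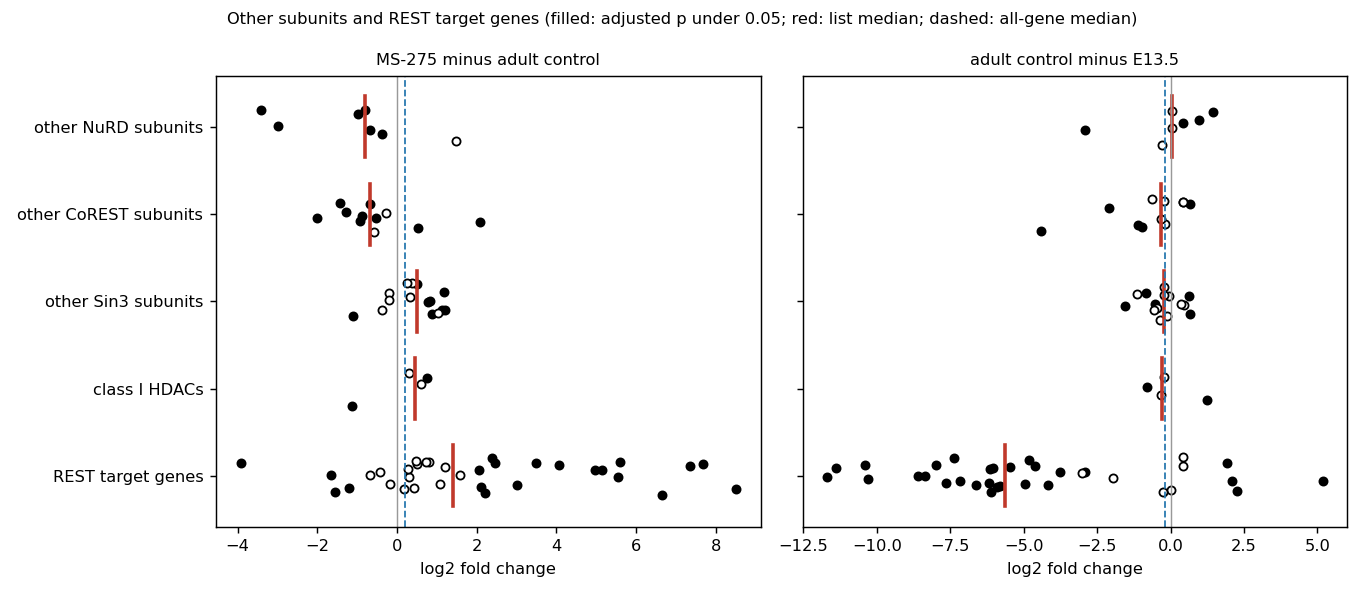
Log2 fold changes (x axes) of each further NuRD, CoREST and SIN3 subunit, class I HDAC and REST target, 1 point per gene, filled where the adjusted p was under 0.05, with the list median in red and the median of all genes dashed, for MS-275 minus adult control and adult control minus E13.5. With MS-275, 6 of 7 other NuRD subunits lay below 0 past the threshold and 7 of 15 other SIN3 subunits above it.

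REST binds the element RE1, whose left arm contains TTCAGCACC and whose right arm begins with GGACAG. The left sequence (9 bases, either strand) was found in 4 of the 31 RefSeq windows of the 23 REST targets that had one, each of another gene, and in 0.371% of all windows, and in none of the 7 members. The genes were listed as known REST targets, so their share is no independent evidence of REST binding. The 4 places are shown with 16 bases on each side, on the strand that reads TTCAGCACC, which is in capitals (GRCm38.p6).
Celsr3, chr9:108825902-108825942 (+ strand): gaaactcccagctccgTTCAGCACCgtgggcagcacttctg
Scg2, chr1:79440009-79440049 (+ strand): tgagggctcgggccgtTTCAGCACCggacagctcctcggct
Syn1, chrX:20921126-20921166 (- strand): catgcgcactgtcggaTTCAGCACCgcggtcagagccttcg
Unc13a, chr8:71671711-71671751 (+ strand): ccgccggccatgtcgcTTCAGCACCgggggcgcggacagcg
In *Scg2* an exact GGACAG followed at once, in *Unc13a* after 8 bases, and in *Celsr3* and *Syn1* not within the stretch shown. Close forms, GGGCAG in *Celsr3* and GGTCAG in *Syn1*, were not counted. The spacing between the arms was not judged, so no stretch is called a full or a partial RE1. The 4 genes, taken here for the sequence, rose with MS-275, as did 47.1% of the REST targets tested and 30.3% of all genes. *Unc13a* was also named above for its adjusted p. Whether the rise goes with the sequence was not tested. *Scg2*, a granule protein, averaged 1299 ± 1100 with MS-275 and 25.1 ± 26.4 in controls (5.58, adjusted p = 0.00117), *Syn1*, a synaptic vesicle protein, 151 ± 133 and 8.12 ± 2.74 (3.50, adjusted p = 0.00290), and *Celsr3*, an axon guidance cadherin, 35.5 ± 11.3 and 6.65 ± 0.47 (2.21, adjusted p = 0.00409, a call lost with quantile normalization and close pairs averaged).

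The genes most like the 4 members of widest range were found by the root mean square difference of centred log2 values over the 12 libraries. For *Mta3* (range of group means 2.45) they were *Mblac1* (0.14), *Cenpt* (0.16) and *Cux1* (0.20), and for *Mta1* (2.20) *Stk35* (0.16), *E2f3* (0.17) and *Stoml2* (0.18). For *Sin3b* (1.31) they were *Gar1* (0.14), *Nit2* (0.16) and *Sfpq* (0.16), and for *Ncor1* (1.15) *Rps4x* (0.12), *Foxj2* (0.12) and *Dedd* (0.13). All 12 were lowest with MS-275, as *Cenpt* at 187 with MS-275, 992 with Wnt3a, 958 in adult control and 795 in E13.5 libraries. This follows from the choice, since the 4 members were themselves lowest with MS-275 in the same libraries.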

How the data were processed

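mRNA-seq of 12 libraries was analysed, grouped by GEO's labels. Per the labels and methods, the authors ran FastQC and cutadapt on the reads, mapped to mm10 by STAR and made counts for GENCODE protein-coding genes (featureCounts in the submitters' notes). The sources used here give no versions. The deposited signal values are counts that the authors divided by DESeq2 size factors. Dividing by the value of 1 read gave whole reads for 100% of values (tolerance 0.01 reads), 20804279 to 33149580 per library. Of 21638 rows, 26 with names turned into dates (0.21% to 0.281% of the signal) and 1 with a missing value were left out, and 2226 genes had no read.

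A limma 3.58.1 fit (R 4.3.3, trend, robust, all 12 libraries, group as factor) was made on log2(normalized count + 1) for 15452 genes with at least 10 in at least 2 libraries. Benjamini-Hochberg adjustment was done separately for each of 4 comparisons, and a gene with an adjusted p under 0.05 was called. As alternatives, other pseudocounts (0.5, 8), filters (none, 50), scalings (equal totals, quantile), fits (only the 2 groups, replicate block, not robust, an added fold threshold), edgeR 4.0.16 and DESeq2 1.42.0 on the recovered reads, each library left out and close pairs averaged were run, and, chosen after seeing the data, MS-275 library pairs alone and library set as a block. The fit with library set as a block used the 9 adult libraries alone. Code was tested on simulated data. Exon lengths and positions are from GENCODE M21 (mm10), promoters from RefSeq (GRCm38.p6). *Mideas* was matched as *Elmsan1*, and *Trerf1* was not analysed here.

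The members and lists were chosen with earlier results of these data known. Named are all members, of each partner list the 3 genes with the smallest adjusted p in the stage and MS-275 comparisons (all of lists of up to 4), of REST targets 4, and the 3 genes most like each of the 4 members of widest range. Some values under this rule, and the paralog share of *Ncor1*, are not reported here. P-values measure the spread between these libraries. Intervals and floors from reads cover counting error only.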

Additional observations from a re-analysis of the deposited data

Results flagged for a closer look

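Over 43 genes (the members and the named partners and targets), each group of 4 to 10 libraries was examined for 1 library far from the rest, which only the MS-275 group allowed. *Gatad2a* stood out: MS-275 replicate 1 had 3484 normalized counts, and the other 3 had between 2972 and 3058. Chance alone gives about 1 in 20 such groups. No member stood out.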

How the results depend on the processing

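Counts of called members changed as follows. In adult control relative to E13.5, the 1 lower member became 0 in the replicate block, in edgeR and with close pairs averaged, and ranged from 0 to 1 with single libraries left out, and the 2 higher became 3 in edgeR and 0 with close pairs averaged. For MS-275 against control, the 1 higher member became 0 with close pairs averaged and with MS-275 replicates 1 and 3 only and 3 with replicates 2 and 4 only, and the 5 lower became 6 in edgeR, DESeq2, library set as a block, without MS-275 replicate 2 and with replicates 1 and 3 only, and 4 with close pairs averaged. For MS-275 against Wnt3a, the 1 higher became 0 with close pairs averaged and 3 with MS-275 replicates 2 and 4 only, and the 5 lower became 3 with close pairs averaged, 4 with replicates 2 and 4 only and without Wnt3a replicate 2, and 6 in edgeR, DESeq2, library set as a block and without Wnt3a replicate 1. Averaging leaves fewer samples. Otherwise the cause was not tested. *Mta1*, *Mta3*, *Mta2* and *Ncor1* stayed called lower with MS-275 in all 23 alternatives.

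Signs turned for values that were not called. For adult control minus E13.5 these were *Rest* (0.10 in edgeR, 0.018 with close pairs averaged, −0.28 to 0.040 with single libraries left out) and *Chd4* (0.0077 in edgeR). With MS-275 replicates 1 and 3 only they were *Rcor1* (−0.088 against control, −0.015 against Wnt3a) and *Chd4* (−0.16 and −0.057). For Wnt3a they were *Ncor1* (−0.030 with equal totals, −0.030 with quantile normalization, −0.019 in edgeR, −0.13 to 0.13 with single libraries left out), *Sin3b* (−0.83 to 0.19), *Mta1* (−0.37 to 0.10) and *Mta3* (−0.27 to 0.11 with single libraries left out). In the replicate block *Mta1* had an adjusted p of 0.0563 between the stages, and the block changed no other call of a member. Deviations of same-numbered libraries correlated at 0.063, −0.0028 and 0.016 for the stages, 0.28, −0.24 and −0.30 for MS-275 and control, 0.44 and −0.44 for Wnt3a and control, and 0.36 and 0.37 for MS-275 and Wnt3a, which share only 2 numbers. The numbers were not taken to pair libraries.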
